A study of Rattus norvegicus with 40 samples.

Results

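The genes followed here encode the extracellular matrix of the dorsal root ganglion (DRG), from collagens to the proteoglycans and glycoproteins that bind them. A list of 45 such genes was chosen by name, and 44 of them had a probeset listed under their symbol, among 14217 genes named on the array. Thbs1 had none. The choice was made with earlier results of these data known, so it was not a blind one. Where more than 1 probeset carried a gene's symbol, the brightest on average across the 40 arrays stood for the gene. The measured genes fall into 7 fibrillar collagens, 6 other interstitial collagens, 11 basement membrane genes, 6 proteoglycans and 14 glycoproteins, and 39 of the 44 lay above the median signal of all probesets.

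Fibrillar collagens assemble into the tensile fibrils of connective tissue, while collagen IV, laminins and nidogens form the sheets that surround Schwann cells, perineurial cells and vessels. Small leucine-rich proteoglycans such as decorin and lumican sit on collagen fibrils, and glycoproteins such as fibronectin, periostin and thrombospondins link fibrils, cells and growth factors. In peripheral ganglia and nerves these proteins are made mainly by fibroblasts, perineurial and vascular cells and Schwann cells, and the matrix is known to be rebuilt after nerve injury.

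The rats were male Sprague-Dawley rats in 2 cohorts of 5. In the SNL cohort the left L5 spinal nerve was tightly ligated just beyond its DRG, which injures the axons of the L5 DRG, while the L4 spinal nerve was not tied. The sham cohort had the same operation without the ligature. At week 4 after surgery single DRGs were taken whole, 1 per array, which gave ipsilateral SNL L4, contralateral SNL L4, ipsilateral SNL L5, contralateral SNL L5, ipsilateral sham L4, contralateral sham L4, ipsilateral sham L5 and contralateral sham L5 DRGs, with 5 arrays each and 40 in all. By the sample titles, the 10 arrays of SNL L5 belong to a different array series from the remaining 30. Signals below are MAS 5 signals on a linear scale in the order of rats 4, 8, 9, 18 and 48 for SNL and of rats 1, 14, 17, 22 and 23 for sham. Differences are ipsilateral minus contralateral means of log2(signal + 16), which understates the change of dim genes, with a standard error. A gene was called where limma gave an adjusted p under 0.05 over all 31042 probesets. Since whole DRGs were measured, fewer cells of a type and less RNA per cell cannot be told apart.

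Several facts of the arrays bear on all results. On the log2 scale, the GAPDH signal at the 3′ end over that at the 5′ end, a ratio that is higher in degraded RNA, averaged 2.35 in ipsilateral and 1.40 in contralateral SNL L4 DRGs, 1.61 and 0.97 in SNL L5, 1.72 and 1.29 in sham L4, and 1.11 and 1.01 in sham L5. The bacterial spike-in controls were on average brighter on the ipsilateral arrays, with log2 differences of 0.65 for SNL L4, 0.22 for SNL L5, 0.95 for sham L4 and 1.05 for sham L5. The SNL L5 difference was smaller than the SD of its ipsilateral (0.34) and contralateral (0.48) arrays. Neuronal markers were present in every group, with a summed signal of at least 12871 on every array over 11 markers. The contralateral SNL L5 arrays stood apart by skeletal muscle markers, 7 of 7 of which were brighter there. Their summed signal was 142 to 166 on the ipsilateral and 2980 to 3439 on the contralateral SNL L5 arrays, against 133 to 314 in the other 6 groups. The part of muscle tissue in the SNL L5 results was not tested, and these results are therefore also given against other contralateral DRGs.

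In the ligated L5 DRG nearly the whole matrix programme was higher than on the opposite side. Of the 44 genes, 42 were called higher and 2 lower, where 30.3% of all probesets were called higher and 16.8% lower. The median log2 fold change of the 44 genes was 1.30, against 0.12 over all probesets. Summed over the 44 genes, the signal was 29989 to 32576 on ipsilateral and 13060 to 14082 on contralateral arrays. The mean of log2(signal + 16) over these genes was 8.64 ± 0.02 in ipsilateral and 7.36 ± 0.02 in contralateral SNL L5 DRGs (SD, n = 5 each), and the ipsilateral SNL L5 arrays lay above all other arrays.

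**Figure D1:**
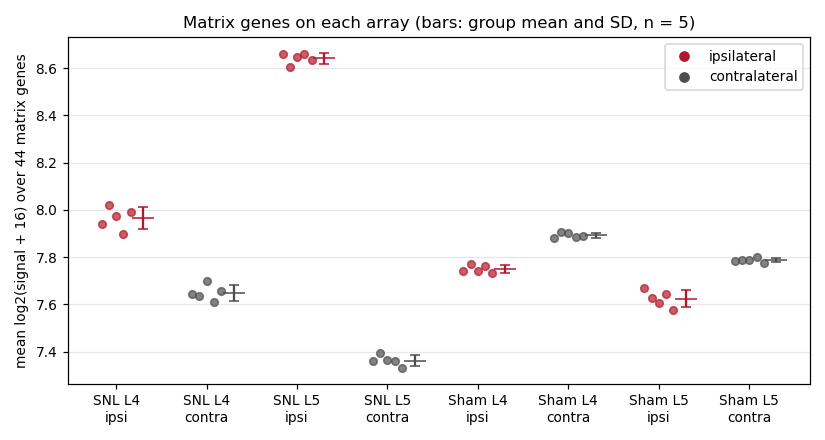
Mean log2(signal + 16) over the 44 matrix genes on each array, by group, with the group mean and SD beside the points (n = 5). The ipsilateral SNL L5 arrays sit at 8.61 to 8.66, above all others, the ipsilateral SNL L4 arrays at 7.90 to 8.02 above their contralateral arrays at 7.61 to 7.70, and in sham rats the ipsilateral arrays lie below the contralateral ones.

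Among the fibrillar collagens, all 7 were called higher in SNL L5, with a median log2 fold change of 1.12. Col3a1, which encodes collagen III of distensible tissue, had signals of 3476, 2780, 3091, 2957 and 2931 in ipsilateral L5 DRGs, against 740, 759, 691, 741 and 749 in contralateral L5 DRGs of SNL rats. Every ipsilateral array was far brighter than any contralateral one. The log2 fold change was 2.02 ± 0.06 (standard error), at an adjusted p of 3.35e-14. Col1a1 and Col1a2, the chains of collagen I, rose by 1.33 and 1.07 on the log2 scale. The chains of collagen V, which sets fibril diameter, rose by 1.58 (Col5a2), 1.12 (Col5a3) and 1.06 (Col5a1). Col11a1 of the minor fibrillar collagen XI had the smallest rise of the class, 0.82.

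The other interstitial collagens were all higher in SNL L5, 6 of 6, with a median of 1.98. The chains of collagen VI, a microfibrillar collagen of endoneurium and other soft tissue, had the largest changes of the class, and those of Col6a3 and Col6a1 were the largest of the 44 genes. Col6a3 had signals of 325, 325, 314, 289 and 320.2 in ipsilateral and 31.9, 38.2, 44.4, 45.9 and 40.8 in contralateral L5 DRGs of SNL rats. The ranges of the sides lay far apart. Its log2 fold change was 2.56 ± 0.07 (standard error), at an adjusted p of 3.03e-14, a 5.90-fold rise. The other Col6a3 probeset, at a mean signal of 13.4, was not called in SNL L5 (0.09). Col6a1 rose by 2.52 and Col6a2 by 2.12. Collagens XII and XIV, which coat the surface of fibrils, rose by 1.84 (Col12a1) and 0.99 (Col14a1). Col8a1, a short-chain collagen of vessel walls, rose by 0.82.

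The RefSeq window around the transcription start of Col6a3 is shown because this gene had the largest change. It lies on rat GRCr8, chr9:98886909-98887208, minus strand, and runs from 250 bases before to 50 bases after the start, 5′ to 3′. Searched on both strands, this window holds no TATA box (TATAAA), no CCAAT box and no GC box (GGGCGG). The window of Postn, the gene of periostin, holds TATAAA from position -44, in capitals (GRCr8, chr2:140677811-140678110, plus strand).
Col6a3: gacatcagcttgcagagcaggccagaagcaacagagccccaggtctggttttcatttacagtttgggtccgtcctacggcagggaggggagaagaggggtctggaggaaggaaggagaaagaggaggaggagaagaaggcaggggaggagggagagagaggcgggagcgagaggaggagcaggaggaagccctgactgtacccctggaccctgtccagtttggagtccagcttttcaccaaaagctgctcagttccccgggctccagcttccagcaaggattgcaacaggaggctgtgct
Postn: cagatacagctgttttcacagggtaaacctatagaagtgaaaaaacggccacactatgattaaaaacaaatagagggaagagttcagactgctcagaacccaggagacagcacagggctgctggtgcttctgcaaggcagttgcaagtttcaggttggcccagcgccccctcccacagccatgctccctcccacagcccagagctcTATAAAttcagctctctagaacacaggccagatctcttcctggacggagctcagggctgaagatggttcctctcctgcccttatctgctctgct
Windows were found for 27 of the 44 genes. TATAAA was in 5 of these 27 (18.5%), against 14.2% of 33469 windows of all genes, CCAAT in 11 (40.7%, against 37.5%), and GGGCGG in 15 (55.6%, against 33.1%). These are matches of letters only, and no test was made of these shares.

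Basement membrane genes rose together in SNL L5, 11 of 11, with a median of 1.28. Nid2, which encodes nidogen 2, a linker of laminin and collagen IV, had signals of 936, 945, 878, 881 and 884 in ipsilateral L5 DRGs, against 202, 211, 199.8, 193 and 197 in contralateral L5 DRGs of SNL rats. The 5 ipsilateral values spanned a narrow range well above the contralateral ones. The log2 fold change was 2.09 ± 0.05 (standard error), at an adjusted p of 1.31e-15. Col18a1, the gene of the heparan sulphate bearing collagen XVIII, rose by 2.05, and Col15a1, its close relative, by 1.33. The laminin chains rose by 1.61 (Lama2, the chain of Schwann cell basement membranes), 1.32 (Lamb2), 1.28 (Lamb1), 1.19 (Lama4, a chain of vascular basement membranes) and 0.70 (Lamc1, the gamma chain shared by most laminins). Nid1, the other nidogen, rose by 1.07.

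Col4a1 and Col4a2 encode the partner chains of collagen IV, the network of every basement membrane, and rose by 0.96 and 0.75 in SNL L5. In SNL L4 their log2 fold changes were 0.53 (Col4a1, called) and -0.07 (Col4a2, not called), but the other Col4a1 probeset was not called there either (0.05). The windows of these 2 genes are shown because the genes lie head to head on opposite strands and their windows share 176 bases. In GRCr8 the Col4a1 window is chr16:84885347-84885646, plus strand, and the Col4a2 window is chr16:84885471-84885770, minus strand. Capitals mark CCAAT and GGGCGG on either strand, so that ATTGG and CCGCCC are their reverse complements. The motifs do not overlap each other.
Col4a1: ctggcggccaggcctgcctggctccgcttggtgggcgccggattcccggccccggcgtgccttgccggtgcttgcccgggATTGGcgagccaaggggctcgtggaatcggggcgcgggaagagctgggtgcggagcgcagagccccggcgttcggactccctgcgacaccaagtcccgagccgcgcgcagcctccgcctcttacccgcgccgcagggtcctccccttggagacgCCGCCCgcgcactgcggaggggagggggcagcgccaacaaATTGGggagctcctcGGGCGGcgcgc
Col4a2: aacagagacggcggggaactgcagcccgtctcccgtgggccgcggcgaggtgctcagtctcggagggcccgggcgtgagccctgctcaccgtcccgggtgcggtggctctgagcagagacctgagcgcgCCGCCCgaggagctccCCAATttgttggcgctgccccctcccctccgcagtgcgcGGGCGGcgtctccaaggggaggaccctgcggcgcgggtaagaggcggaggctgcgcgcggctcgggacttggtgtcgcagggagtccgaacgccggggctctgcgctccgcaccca

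Proteoglycans were higher in the ligated L5 DRG as well, 6 of 6, with a median of 1.47. Lum, the gene of lumican, a leucine-rich proteoglycan of collagen fibrils, had signals of 1291, 1206, 1150, 1128 and 1204 in ipsilateral and 380.2, 326, 329, 319 and 339.7 in contralateral L5 DRGs of SNL rats. The sides lay far apart, and the log2 fold change was 1.77 ± 0.06 (standard error), at an adjusted p of 9.05e-14. Versican (Vcan), a large chondroitin sulphate proteoglycan, rose by 1.56, biglycan (Bgn) by 1.497, decorin (Dcn) by 1.45 and osteoglycin (Ogn) by 1.24. Fibromodulin (Fmod) rose least, by 0.58, at low signals of 29.7 ± 6.2 in ipsilateral and 14.4 ± 3.4 in contralateral DRGs (SD, n = 5 each).

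Glycoproteins were the class with members in both directions, 12 higher and 2 lower of 14 in SNL L5. Fn1, which encodes fibronectin, an adhesive protein of provisional matrix, had signals of 301, 268, 303, 276 and 275 in ipsilateral L5 DRGs, against 41.5, 45.6, 46.5, 46.0 and 41.7 in contralateral L5 DRGs of SNL rats. Its sides did not come near each other, and the log2 fold change was 2.32 ± 0.06 (standard error), at an adjusted p of 1.37e-14. Postn rose by 2.19, Thbs2, the gene of thrombospondin 2, by 2.003, and Fbn1, the gene of the microfibril protein fibrillin 1, by 1.97. Lox, which encodes lysyl oxidase, the enzyme that cross-links collagen and elastin, rose by 1.57. Matrix Gla protein (Mgp), an inhibitor of calcification, rose by 1.32.

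Smaller rises were those of the microfibril-associated genes Mfap4 and Mfap5 (1.05 each), of Fbln1 (0.57), Eln, the gene of elastin (0.53), Tnc, the gene of tenascin C (0.43), and Sparc, a collagen-binding matricellular protein (0.35). The change of Sparc was not called after scaling to equal medians (0.14). Fbln2 and Fbln5 encode fibulins, which join elastic fibres and basement membranes, and were the genes called lower. Fbln2 averaged 418 ± 18 in ipsilateral and 721 ± 34 in contralateral L5 DRGs of SNL rats (SD, n = 5 each), a log2 fold change of -0.76 (standard error 0.05). For Fbln5 the means were 248.6 ± 30.8 in ipsilateral and 389 ± 36 in contralateral DRGs (SD, n = 5 each), a log2 fold change of -0.62 (standard error 0.08). On every ipsilateral SNL L5 array Fbln2 was below its signal on all 35 other arrays.

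**Figure D2:**
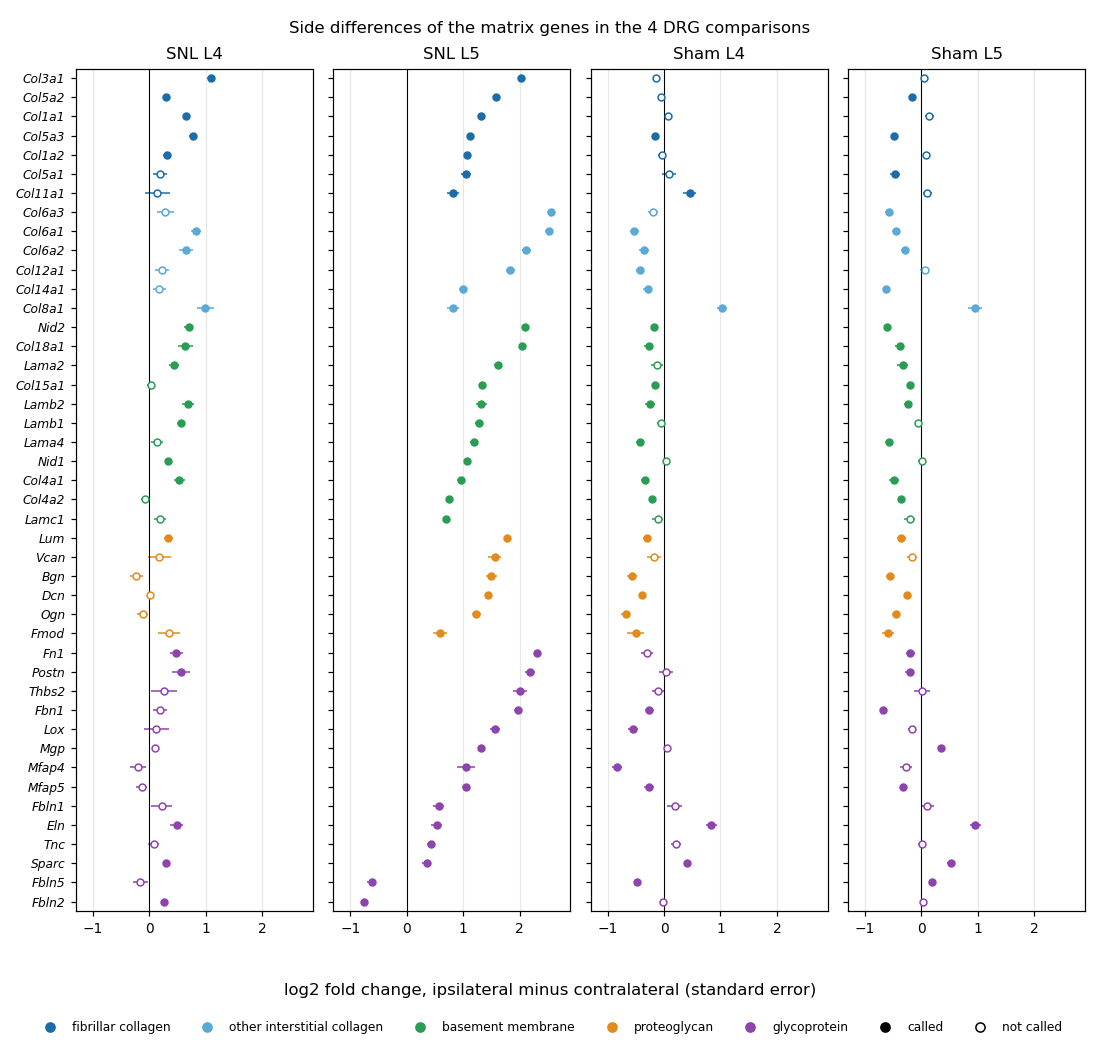
Log2 fold change (ipsilateral minus contralateral) with standard error of each of the 44 genes in SNL L4, SNL L5, sham L4 and sham L5, coloured by class, with filled points where the gene was called. In SNL L5 the points run up to 2.56 and only Fbln5 and Fbln2 lie below 0, whereas in sham DRGs most filled points lie below 0 except those of Col8a1, Eln, Sparc, Col11a1, Mgp and Fbln5, of which Sparc in both segments and Mgp turn below 0 with quantile normalization and Fbln5 in sham L5 with equal medians.

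The ipsilateral SNL L5 arrays were also set against the other groups, whose contralateral arrays lack the muscle signal. Taking all 40 arrays, 29 of the 44 genes were brighter on each ipsilateral SNL L5 array than on any of the 35 others, as were 3.7% of all probesets, and 1 gene was dimmer than on all 35, as were 2.83%. By group means, the ipsilateral SNL L5 DRGs were highest of the 8 groups for 34 of the 44 genes and the ipsilateral SNL L4 DRGs for 6, while the contralateral SNL L5 DRGs were lowest for 22. This ranking crosses the array series, and its shares over all probesets were not computed. With the contralateral L4 DRGs of the same rats in place of the contralateral L5 DRGs, 35 genes were called higher and 2 lower. With the contralateral L5 DRGs of sham rats the counts were 39 and 4. Both of these cross the array series, and the share of all probesets called in them was not computed. The counts therefore cannot be read as particular to the matrix genes. Mfap4 then had a log2 fold change of -0.24 (not called) against contralateral L4 and -0.70 against contralateral sham L5, and Fmod one of -0.39 against contralateral sham L5. Sparc and Tnc were not called against contralateral L4, with -0.094 and -0.11.

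Markers of several cell types moved with the matrix genes in SNL L5, and their part in the result was not tested. Of all probesets, 30.3% were called higher there and 16.8% lower. Macrophage markers were called higher in 6 of 8 cases, with a summed signal of 1026 to 1169 in ipsilateral and 348 to 384 in contralateral DRGs. Schwann cell markers were higher in 5 of 5 and perineurial markers in 3 of 5. Of 6 fibroblast markers, 5 were higher and 1, Thy1, which neurons also express, was lower. Pdgfra, the receptor that marks fibroblasts, rose by 1.53 (standard error 0.05). The summed signal of the fibroblast list, which Thy1 dominates, was 1714 to 1812 in ipsilateral and 1718 to 1922 in contralateral DRGs. Of 11 neuronal markers, 8 were lower and 2 higher, with a summed signal of 14592 to 16650 in ipsilateral and 18684 to 23267 in contralateral DRGs. Endothelial markers were higher in 5 and lower in 1 of 7, pericyte and smooth muscle markers higher in 4 and lower in 1 of 8. Blood and neutrophil markers were lower in 4 of 4, with a summed signal of 3209 to 3594 in ipsilateral and 3877.5 to 5467.5 in contralateral DRGs.

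**Figure D3:**
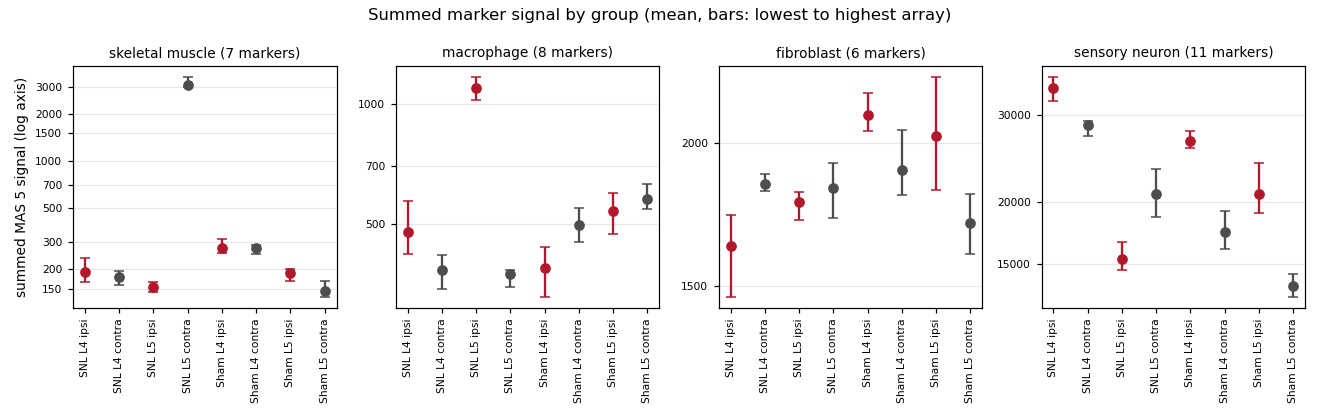
Summed signal of the markers of skeletal muscle, macrophages, fibroblasts and sensory neurons by group on log axes, as the mean with bars from the lowest to the highest of 5 arrays. The contralateral SNL L5 arrays stand apart in skeletal muscle markers (2980 to 3439), and the ipsilateral SNL L5 arrays in macrophage markers (1026 to 1169).

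In the L4 DRG of the same SNL rats the change was smaller, and on the probesets that stood for the genes it went one way. There 21 of the 44 genes were called higher and none lower, where 10.1% of all probesets were called higher and 9.01% lower. At an unadjusted p under 0.05 limma also found 0 lower, and the methods' t-test with adjustment called 0 lower, but scaling arrays to an equal median gave 16 higher and 1 lower, with 5 of the 21 calls lost. The median log2 fold change was 0.27, against 0.07 over all probesets. Higher were 5 of 7 fibrillar collagens, 3 of 6 other interstitial collagens, 7 of 11 basement membrane genes, 1 of 6 proteoglycans and 5 of 14 glycoproteins. Only 9 of the 21 changed by at least 1.5-fold. The GAPDH ratio differed most between the sides in this comparison. Markers moved too, with 3 of 4 blood and neutrophil markers lower (summed signal 918 to 1156 in ipsilateral and 2785 to 3164 in contralateral DRGs), and with 3 of 5 Schwann cell markers (10825 to 13296 in ipsilateral and 8259 to 10323 in contralateral DRGs), 3 of 8 macrophage markers (421 to 572 and 343 to 418) and 6 of 11 neuronal markers (31986 to 35700 and 27136 to 29168) higher. Their part in the result was not tested.

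Col3a1 had the largest rise in SNL L4. Its signals were 2730, 2768, 2642, 2457 and 2425 in ipsilateral L4 DRGs, against 1167, 1149, 1252, 1201 and 1316 in the contralateral ones. The sides did not overlap, and the fold change was 2.12. Col5a3 rose by 0.77, Col1a1 by 0.66, Col1a2 by 0.31 and Col5a2 by 0.30. With equal medians Col1a2 and Col5a2 were not called (0.17 each). Col8a1 had signals of 165, 190.5, 175, 98.3 and 182 in ipsilateral and 78.8, 55.3, 87.4, 66.6 and 74.5 in contralateral L4 DRGs, a log2 fold change of 0.99 ± 0.15 (standard error), at an adjusted p of 0.000125. Rat 18 had the lowest of the 5 ipsilateral values, still above all contralateral ones. Col6a1 and Col6a2 rose by 0.83 and 0.65, while Col6a3, with the largest rise in SNL L5, was not called in SNL L4 (0.29, standard error 0.14).

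Of the basement membrane genes, Nid2 had signals of 278, 283, 272, 344 and 282 in ipsilateral and 164, 181, 183, 171 and 167 in contralateral L4 DRGs. All ipsilateral arrays were above all contralateral ones, and the log2 fold change was 0.70 ± 0.08 (standard error), at an adjusted p of 4.55e-06. Lamb2 rose by 0.69, Col18a1 by 0.63, Lamb1 by 0.56, Col4a1 by 0.53, Lama2 by 0.43 and Nid1 by 0.33. The rise of Nid1 was lost when its probesets were averaged, with a value of -0.082. Lum was the only proteoglycan called (0.34), and its sides overlapped, with 485 to 662 in ipsilateral and 392 to 491 in contralateral DRGs. With equal medians it was not called (0.20).

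Fn1 led the glycoproteins in SNL L4 among genes whose sides did not overlap, with signals of 117, 115, 99.97, 99.92 and 115 in ipsilateral L4 DRGs, against 90.9, 59.9, 84.5, 70.5 and 68.3 in contralateral L4 DRGs. The gap between the sides was narrow, and the log2 fold change was 0.47 ± 0.12 (standard error), at an adjusted p of 0.00713. Postn (0.56), Eln (0.49), Sparc (0.29) and Fbln2 (0.25) were the other glycoproteins called. With equal medians the calls of Sparc (0.15) and Fbln2 (0.12) were lost, and Sparc was also not called with quantile normalization (0.037). Fbln2 was thus called higher in SNL L4 as deposited, though not with equal medians, and lower in SNL L5.

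**Figure D4:**
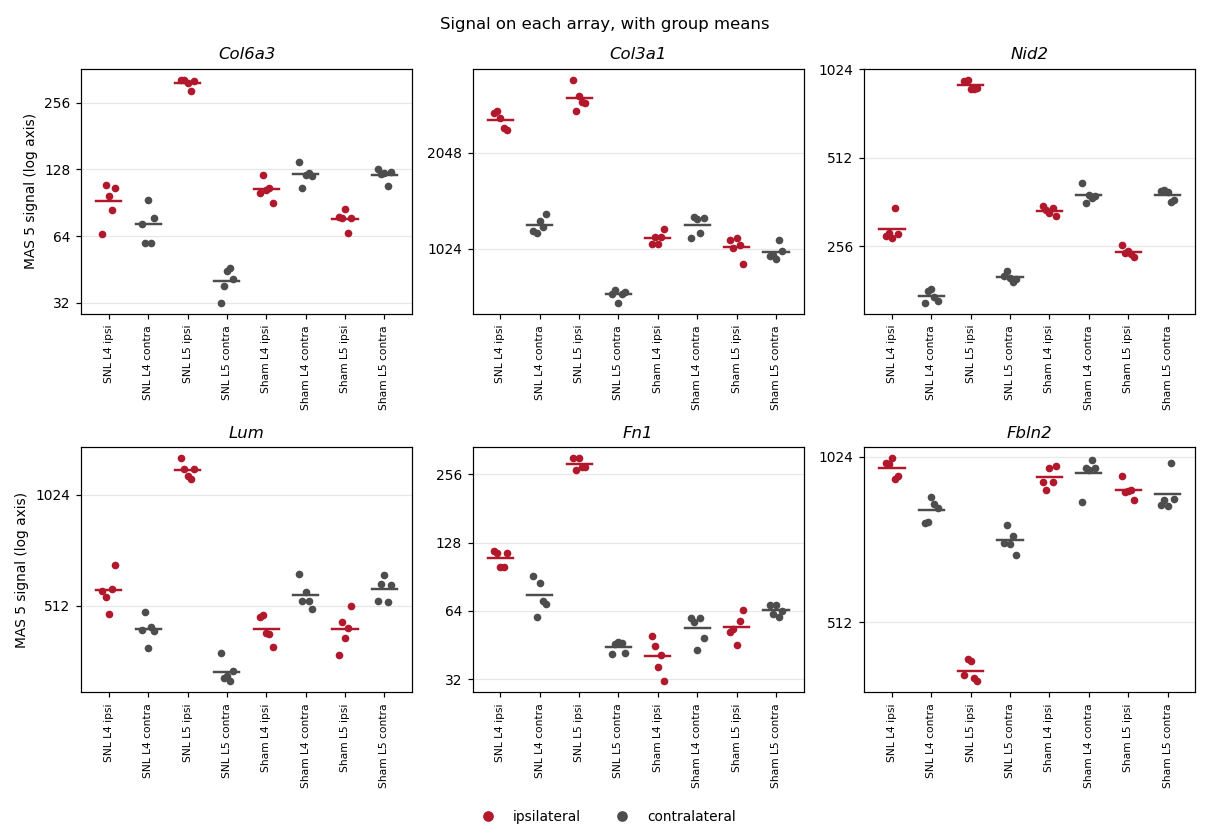
MAS 5 signal of Col6a3, Col3a1, Nid2, Lum, Fn1 and Fbln2 on each array (log axis), by group, with a line at the group mean of 5 arrays. Col6a3, Nid2, Lum and Fn1 are highest on the ipsilateral SNL L5 arrays, Col3a1 is high in both ipsilateral SNL groups, and Fbln2 is lowest on the ipsilateral SNL L5 arrays.

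The difference between the ligated segment and its neighbour was tested itself. In the fit of 20 SNL arrays, 36 of the 44 genes had a larger ipsilateral change at L5 than at L4 and 1, Fbln2, a smaller one, where 11.1% and 8.08% of all probesets did. Col6a3 differed most, by 2.27 (standard error 0.16), followed by Fn1 (1.84), Fbn1 (1.78), Thbs2 (1.74) and Bgn (1.73). All 11 basement membrane genes were among the 36. Genes with no call for this difference included Col8a1 (-0.17, standard error 0.20), Sparc (0.06, standard error 0.10) and Eln (0.05, standard error 0.15). The SNL L5 side of this test holds the contralateral arrays with muscle markers.

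In sham rats the sides differed too, with more matrix genes lower than higher on the ipsilateral side. In sham L4, 4 genes were called higher and 22 lower, where 17.3% of all probesets were called higher and 9.85% lower. In sham L5 the counts were 5 and 24, against 31.1% and 19.3% of all probesets. The median log2 fold change of the 44 genes was -0.17 in sham L4 and -0.21 in sham L5, against 0.06 over all probesets in each. Most of these changes were small, and at least 1.5-fold changes were made by 2 higher and 2 lower genes in sham L4 and by 2 higher and 4 lower genes in sham L5. When each array was scaled to an equal median, which moved the median of all probesets to -0.07 in sham L4 and -0.11 in sham L5, 33 and 35 genes were lower and 3 were higher in each. With quantile normalization 3 were higher and 19 lower in sham L4, where 9 of the 26 calls were lost, and 3 higher and 26 lower in sham L5. The share of all probesets called was not computed for either scaling, so these counts have no array-wide share beside them. The bacterial controls differed most between the sides in these comparisons, and neuronal markers were higher ipsilaterally in 8 of 11 cases in both, but in 2 in sham L4 and 1 in sham L5 after quantile normalization. Their part in the result was not tested.

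Of the proteoglycans, 5 of 6 were lower in sham L4 and 5 of 6 in sham L5, and of the basement membrane genes 7 of 11 in sham L4 and 8 of 11 in sham L5. Ogn had signals of 241, 217, 192, 201 and 257 in ipsilateral and 345, 339, 387, 336 and 414 in contralateral L4 DRGs of sham rats. No ipsilateral array reached a contralateral one, and the log2 fold change was -0.68 ± 0.08 (standard error), at an adjusted p of 2.21e-05. Fmod had signals of 28.5, 31.8, 19.1, 20.8 and 18.6 in ipsilateral and 46.3, 50.1, 45.8, 36.9 and 38.9 in contralateral L5 DRGs of sham rats, and the log2 fold change was -0.59 (standard error 0.11). Its sides were likewise apart, at low signals.

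Lama4 had signals of 131, 125, 152, 128 and 134 in ipsilateral L4 DRGs, against 208, 181, 188, 168 and 182 in contralateral L4 DRGs of sham rats. The sides were separate, and the log2 fold change was -0.42 ± 0.07 (standard error), at an adjusted p of 0.000479. Nid2 had signals of 258, 242, 247, 241 and 236 in ipsilateral and 395, 396, 391, 361 and 367 in contralateral L5 DRGs of sham rats, a log2 fold change of -0.61 ± 0.05 (standard error), at an adjusted p of 1.21e-07. The gap between its sides was wide against the spread within each. In sham L4 the change of Nid2 was -0.17, and that call was lost in 6 of 10 fits with 1 array left out and with quantile normalization (-0.076).

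Of the 7 fibrillar collagens, 1 was higher and 1 lower in sham L4, and 0 were higher and 3 lower in sham L5, where no fibrillar collagen rose at an unadjusted p under 0.05 by limma either. Col5a3 had signals of 278, 272, 270.1, 267 and 267 in ipsilateral L5 DRGs, against 379, 383, 384, 379.7 and 397 in contralateral L5 DRGs of sham rats, and the log2 fold change was -0.48 ± 0.04 (standard error), at an adjusted p of 3.62e-07. Arrays of each side were close together and the sides far apart. In sham L4 it had 346, 398, 378, 374 and 338 in ipsilateral and 414, 422, 413, 399 and 406 in contralateral DRGs. There the sides nearly touched, the log2 fold change was -0.16 (adjusted p = 0.042), and the call was lost in 8 of 10 fits with 1 array left out. Col5a1 (-0.47) and Col5a2 (-0.17) were called lower in sham L5 and not in sham L4. The test of the difference between the segments was passed by Col5a1 (-0.56) and Col5a3 (-0.32), but not by Col5a2 (-0.11). Col1a1, Col1a2 and Col3a1 were not called in either segment, with log2 fold changes of -0.13 to 0.14. The second Col1a1 probeset was called lower in both (-0.22 in L4 and -0.21 in L5).

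The collagen VI chains, at the top of the change in SNL L5, were lower in sham rats, with Col6a1 at -0.52 in L4 and -0.46 in L5, and Col6a2 at -0.35 in L4 and -0.30 in L5. Col6a3 was called in L5 (-0.57) and not in L4 (-0.20), and that difference between the segments was called (-0.37, standard error 0.11). Another Col6a3 probeset was called higher in L5 (0.40). Col14a1 was lower in both segments (-0.29 and -0.62), though the L4 call of Col14a1 was lost with quantile normalization (-0.19). Col12a1 was lower in L4 (-0.42) on its brightest probeset, while its other 2 probesets, at mean signals of 10.7 and 28.3, were called higher there (0.31 and 0.66) and in L5 (0.47 and 0.74). Both collagen IV genes fell as well, Col4a1 at -0.33 in L4 and -0.49 in L5, and Col4a2 at -0.21 and -0.37. Among the glycoproteins, Mfap4 (-0.83) and Lox (-0.54) were lower in sham L4, and Fbn1 was lower in L4 (-0.26, a call lost with quantile normalization) and L5 (-0.67).

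A few genes rose in sham rats against this trend. Col8a1 had signals of 96.4, 119, 107, 112 and 119.6 in ipsilateral and 40.9, 43.1, 52.5, 49.5 and 45.3 in contralateral L4 DRGs of sham rats, a log2 fold change of 1.03 ± 0.09 (standard error), at an adjusted p of 6.40e-07. In L5 its signals were 67.4, 59.3, 66.4, 59.2 and 35.2 in ipsilateral and 22.9, 22.6, 24.3, 22.01 and 16.6 in contralateral DRGs, and the log2 fold change was 0.95 (standard error 0.12). Ipsilateral and contralateral arrays were apart in both segments. Eln had signals of 70.9, 81.7, 70.1, 58.7 and 74.7 in ipsilateral and 29.0, 37.6, 36.8, 31.3 and 28.8 in contralateral L4 DRGs, and the log2 fold change was 0.84 (standard error 0.10). In L5 they were 54.0, 53.9, 61.2, 65.5 and 42.6 in ipsilateral and 23.8, 17.7, 16.9, 24.2 and 21.4 in contralateral DRGs, and the log2 fold change was 0.95 (standard error 0.10).

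Col8a1 and Eln were thus called higher in all 4 side comparisons, though the second Eln probeset, at a mean signal of 9.16, was called in none. Sparc was the third gene called higher in all 4 side comparisons, with 0.40 in sham L4 and 0.52 in sham L5, but quantile normalization turned both, to -0.078 and -0.12 (not called), and its SNL L4 call was lost as given above. The second Sparc probeset was called higher in SNL L4 (0.49), SNL L5 (0.54) and sham L5 (0.28), but had -0.22 in sham L4 (not called). Col11a1 was higher in sham L4 (0.46), and Mgp (0.34) and Fbln5 (0.19) in sham L5. The sign of Mgp turned after quantile normalization (-0.15, called lower), and that of Fbln5 after scaling to equal medians (-0.11). Fbln5 was called lower in sham L4 (-0.47) and higher in sham L5, and the difference between the segments of sham rats was 0.66 (standard error 0.09). In all, 5 genes had a larger and 6 a smaller change in L5 than in L4 of sham rats, where 7.33% and 5.01% of all probesets did. With the rat as a block, Fn1 and Postn were no longer called lower in sham L5 (adjusted p = 0.0809 and 0.0739), and Fn1 was called lower in sham L4 (adjusted p = 0.0402).

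Set against the sham side difference, the ligated rats differed further. At L4, 25 genes had a larger side difference in SNL than in sham rats and none a smaller one, where 5.72% and 8.28% of all probesets did, and at an unadjusted p under 0.05 limma found 1 smaller, Eln (-0.35). At L5 the counts were 39 and 3, against 20.9% and 22.3%. Of the 42 genes higher in SNL L5, 18 were lower in both sham comparisons and 27 in at least 1. Of the 21 genes higher in SNL L4, 12 were lower in at least 1 sham comparison. How many of all probesets were called in such opposite directions was not counted, so these counts have no array-wide share beside them.

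Col6a1 had the largest difference at L4. Its signals were 253, 229, 250.2, 212 and 211 in ipsilateral and 122, 113, 119.6, 125 and 135 in contralateral L4 DRGs of SNL rats. In sham rats they were 124, 144, 149.7, 143 and 127 in ipsilateral and 197, 218, 215, 179.9 and 215 in contralateral L4 DRGs. The sides were apart in both cohorts, in opposite directions, and the SNL minus sham difference was 1.35 ± 0.11 (standard error), at an adjusted p of 9.76e-10. Col3a1 differed by 1.22 (standard error 0.08), with 1059, 1118, 1057, 1118 and 1180 in ipsilateral and 1106, 1285, 1267, 1146 and 1280 in contralateral sham L4 DRGs, where the sides overlapped. Col6a2 had signals of 136, 134, 80.9, 109 and 111 in ipsilateral and 69.7, 71.3, 64.6, 65.3 and 60.1 in contralateral SNL L4 DRGs. For sham L4 they were 92.3, 76.3, 73.5, 101 and 84.3 in ipsilateral and 116, 117, 106, 113 and 114 in contralateral DRGs. Again the cohorts went opposite ways, and the difference was 0.999 (standard error 0.15).

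At L5 the largest differences were those of Col6a3 (3.13, standard error 0.10), Col6a1 (2.97, standard error 0.09) and Nid2 (2.70, standard error 0.06). Col6a3 had 77.8, 77.2, 84.4, 65.9 and 77.0 in ipsilateral and 129, 122, 124, 108 and 124 in contralateral L5 DRGs of sham rats. For Col6a1 the SNL L5 signals were 514, 490.5, 478, 476 and 442 in ipsilateral and 68.9, 63.6, 86.4, 69.1 and 67.2 in contralateral DRGs. In sham L5 they were 130.1, 128, 131, 109 and 113 in ipsilateral and 163, 181, 169, 177 and 176 in contralateral DRGs. For each of these genes all ipsilateral L5 arrays lay above the contralateral ones in SNL rats and below them in sham rats. The genes with a smaller side difference in SNL than in sham L5 DRGs were Fbln5 (-0.81), Fbln2 (-0.79) and Eln (-0.42). Col8a1 (-0.12, standard error 0.17) and Sparc (-0.16, standard error 0.10) were not called for a difference.

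**Figure D5:**
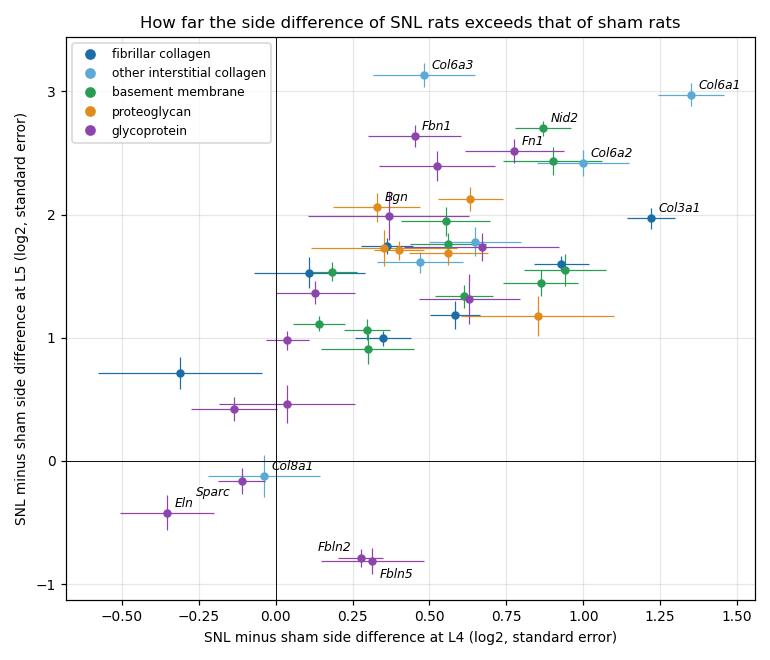
SNL minus sham difference of the side difference (log2, with standard errors) at L4 on the horizontal and at L5 on the vertical axis, for 44 genes coloured by class. Col6a3, Col6a1 and Nid2 lie highest at 2.70 to 3.13, Col6a1 and Col3a1 farthest right at 1.35 and 1.22, and Fbln2, Fbln5 and Eln lie below 0 at L5.

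Levels of the same side in the 2 cohorts could be compared at L4, where all arrays are of 1 series. Contralateral L4 DRGs differed between the cohorts, with 8 of the 44 genes called higher and 28 lower in SNL than in sham rats, where 44% and 19.9% of all probesets were. The median of the 44 genes was -0.28, against 0.22 over all probesets. Nid2 was lower by 1.08 (standard error 0.06) and Col4a1 by 1.02 (standard error 0.08), while Sparc (0.84) and Eln (0.81) were higher. Ipsilateral L4 DRGs had 19 genes higher and 6 lower in SNL than in sham rats, where 32.9% and 16.2% of all probesets were, with Col3a1 (1.22), Fn1 (1.16) and Col1a1 (0.84) at the top. After scaling to equal medians the split of this comparison turned to 5 higher and 22 lower, with these 3 genes still higher (0.68, 0.70 and 0.30), and that of the contralateral one was 3 higher and 35 lower. The share of all probesets called after this scaling was not computed. Sparc was not called in the contralateral comparison after quantile normalization (0.0997). Cohort, surgery and the handling of the cohorts cannot be told apart here, and scaling to equal medians moved the median of all probesets to -0.12 in contralateral and -0.11 in ipsilateral L4 DRGs, against 0.22 and 0.20 as deposited.

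Genes that process collagen moved with the collagens in SNL L5, where 13 of 16 were higher and 0 lower by limma, also at an unadjusted p under 0.05, and 8 after scaling to equal medians. As deposited, the 13 were 81.25%, where 30.3% of all probesets were called higher and 16.8% lower. Pcolce, an enhancer of procollagen cleavage, rose by 1.81 (standard error 0.11) and Plod3, a lysyl hydroxylase, by 1.33 (standard error 0.12). In SNL L4, 1 was higher and 1 lower (6.25% each, against 10.1% and 9.01% of all probesets). Pcolce rose there by 0.35, a call lost with quantile normalization (0.36) and equal medians (0.22), and P4hb, a subunit of prolyl hydroxylase and a protein disulphide isomerase, fell by 0.95. Sham rats had 1 higher and 4 lower in L4 and 4 higher and 5 lower in L5, and with equal medians 0 higher and 6 lower in L4 and 0 higher and 11 lower in L5. The share of all probesets called with equal medians was not computed, so such counts of this list and of those that follow have no array-wide share. As deposited, higher genes were 6.25% in sham L4 and 25% in sham L5, against 17.3% and 31.1% of all probesets. Lower genes were 25% and 31.25%, against 9.85% and 19.3%. Of the lower genes, Pcolce fell by 0.47 in L4 and 0.54 in L5, and Serpinh1, the collagen chaperone, by 0.40 in L4.

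In the TGF-beta pathway, whose ligands drive matrix synthesis, 12 of 18 genes were higher and 1 lower in SNL L5, led by the latent binding proteins Ltbp1 (1.63, standard error 0.06) and Ltbp4 (1.5, standard error 0.08). In SNL L4, 3 were higher, among them Ltbp1 (0.60) and the inhibitory Smad6 (0.52), and 0 lower by limma, also at an unadjusted p under 0.05. The shares were 66.7% higher and 5.56% lower in SNL L5, against 30.3% and 16.8% of all probesets. In SNL L4, 16.7% were higher, against 10.1% of all probesets. The call of Smad6 in SNL L4 was lost with quantile normalization (0.45) and equal medians (0.38). Sham rats had 4 higher and 2 lower in L4 and 4 higher and 9 lower in L5, and with equal medians 0 and 6 in L4 and 1 and 12 in L5. The 4 of 18 called higher were 22.2% in each sham segment, against 17.3% of all probesets in L4 and 31.1% in L5, and the 2 lower in L4 were 11.1%, against 9.85%. Inhba, the gene of an activin subunit, rose by 0.60 in sham L5, and Smad3, a signal transducer, had 0.41 in sham L4 and -0.48 in sham L5, both called. The L4 call of Smad3 was lost with quantile normalization (0.37) and equal medians (0.23).

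Matrix receptors were higher in 14 and lower in 2 of 19 cases in SNL L5 (73.7% and 10.5%, against 30.3% and 16.8% of all probesets). Sdc1, the cell surface proteoglycan syndecan 1, rose by 1.96 (standard error 0.09), and Itgb4, the integrin chain of perineurial and Schwann cells that binds laminin, by 1.32 (standard error 0.08). In SNL L4, 7 were higher and 5 lower (36.8% and 26.3%, against 10.1% and 9.01% of all probesets). Itga5, the fibronectin receptor chain, rose by 0.62 and Itgb5 fell by 0.93. Sham rats had 2 higher and 5 lower in L4, and 3 higher and 4 lower in L5, and with equal medians 1 and 11 in L4 and 1 and 12 in L5. Higher receptors were 10.5% in sham L4 and 15.8% in sham L5, against 17.3% and 31.1% of all probesets, and lower ones 26.3% and 21.1%, against 9.85% and 19.3%. Itgav, an integrin chain that binds fibronectin and vitronectin, rose in both (0.63 and 0.53), though the L5 call was lost with quantile normalization (0.24) and equal medians (0.21).

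Of 31 further matrix genes, 20 were higher and 1 lower in SNL L5, 9 and 1 in SNL L4, 2 and 6 in sham L4, and 8 and 10 in sham L5. The SNL L5 shares were 64.5% and 3.23%, against 30.3% and 16.8% of all probesets. Those of SNL L4 were 29.0% and 3.23%, against 10.1% and 9.01%. With equal medians the sham counts were 0 and 13 in L4 and 5 and 14 in L5. As deposited, the higher genes were 6.45% in sham L4 and 25.8% in sham L5, against 17.3% and 31.1% of all probesets, and the lower ones 19.4% and 32.3%, against 9.85% and 19.3%. Thbs4, the gene of thrombospondin 4, had means of 1102 in ipsilateral and 172 in contralateral L5 DRGs of SNL rats, a log2 fold change of 2.58 (standard error 0.06). Col16a1, a fibril-associated collagen, rose by 1.65 in SNL L5 and 0.76 in SNL L4. Prelp, a leucine-rich proteoglycan of basement membranes, fell in sham L4 (-0.46) and sham L5 (-0.77), and Col27a1, a fibrillar collagen, rose in both (0.48 and 0.78), though the L4 call was lost with quantile normalization (0.30) and equal medians (0.34).

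For 22 of the 44 genes other probesets were on the array, 29 in all. In SNL L5, 20 of these were called in the same direction as the gene's main probeset, 0 in the opposite direction, and 9 were not called. In SNL L4, 5 had the same call and 0 the opposite. A further 3 were called there where the main probeset was not. Those of Col5a1 (0.59) and Col14a1 (0.45) were higher, and 1 of Ogn was lower (-0.48). The opposite call was made by 2 probesets in sham L4, both of Col12a1, and by 2 in sham L5, of Col6a3 and Lama4. Another 2 in sham L4 and 8 in sham L5 were called where the main probeset was not. In sham L5 these included all other Vcan probesets, called higher (0.43 to 0.86) at mean signals of 20.5 to 25.6. The main Vcan probeset had -0.17 there (not called). For Col12a1 the other 2 probesets were not called in SNL L5 (0.25 and 0.20).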

How the data were processed

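RNA from single rat DRGs was measured on Affymetrix Rat230_2 arrays, 1 per DRG, 40 in all. The authors deposited MAS 5 signal intensities on a linear scale, and their scaling left nearly equal trimmed means. No version of the MAS 5 software was stated. Offset 16 was added, log2 was taken from these deposited intensities, 57 control probesets were left out, and limma 3.58.1 in R 4.3.3 (lmFit, eBayes with trend) was fitted to 31042 probesets for each comparison, with Benjamini-Hochberg adjustment over all of them and no filter. Precision is limited by 5 arrays a group. The fits were also tested on simulated data.

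A gene was represented by its brightest probeset on average. Signals on every array are given, per class and side comparison, for the called gene with the largest change whose sides did not overlap, and for the 3 largest SNL minus sham differences called at each segment. From other lists, the 2 largest called changes in a comparison may be named. Genes and lists were chosen with earlier results of these data known.

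The rat number pairs DRGs of the same animal. Over probesets, paired arrays had correlated deviations of r = -0.01 to 0.04 (SNL L4), -0.06 to 0.04 (SNL L5), -0.05 to 0.10 (sham L4) and -0.14 to 0.01 (sham L5). The main fits had no rat block. Alternatives were other offsets, scalings, probeset rules, filters, thresholds, arrays in the fit, leaving out each array and the methods' t-test, which was run unpaired. Promoter windows came from RefSeq.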

Additional observations from a re-analysis of the deposited data

Results flagged for a closer look

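Among 54 groups of 5 arrays of the genes shown in full, 6 held an array far from the other 4 of its group, where chance gives about 1 in 20. Rat 18 stood apart in ipsilateral SNL L4 with a low Col8a1 (98.3) and a high Nid2 (344). Rat 9 stood apart in contralateral SNL L5 with a low Col3a1 (691) and a high Col6a1 (86.4). Rat 23 stood apart in sham L5, with a low Col8a1 on the ipsilateral side (35.2) and a high Col5a3 on the contralateral side (397).

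The side difference differed between ligated and sham rats, by the test of that difference, for 25 genes at L4 and 42 at L5. The largest at L4 were those of Col6a1 (1.35), Col3a1 (1.22) and Col6a2 (0.999), and at L5 those of Col6a3 (3.13), Col6a1 (2.97) and Nid2 (2.70). Between the segments, it differed for 37 genes in SNL rats and 11 in sham rats.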

How the results depend on the processing

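With the rat as a replicate block, 21 genes were higher in SNL L4, 42 higher and 2 lower in SNL L5, 4 and 23 in sham L4, and 5 and 22 in sham L5. The block changed no call of the 44 genes in the side comparisons other than those of Fn1 and Postn in sham rats (Fn1 at -0.30 in sham L4 and -0.20 in sham L5, Postn at -0.21 in sham L5).

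Leaving out 1 array at a time gave 21 to 22 higher and 0 lower in SNL L4, 42 and 2 in SNL L5, 4 higher and 16 to 23 lower in sham L4, and 4 to 5 higher and 22 to 25 lower in sham L5. For the differences between cohorts the counts were 23 to 27 at L4 and 42 at L5, and between segments 36 to 38 in SNL and 10 to 12 in sham rats. For the levels between cohorts they were 35 to 37 in contralateral and 21 to 24 in ipsilateral L4 DRGs.

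Counts moved by more than 1.5 times in these cases. Demanding a change of at least 1.5-fold left 9 higher in SNL L4, 2 higher and 2 lower in sham L4, and 2 higher and 4 lower in sham L5. The methods' t-test at its threshold, chosen as an alternative after seeing the data, left 9 lower in sham L4 and 13 in sham L5, and an adjusted p under 0.01 left 13 lower in sham L4. Averaging probesets left 2 higher in sham L4. Quantile normalization and equal medians each left 3 higher in sham L5. Equal medians, and the fit of all 8 groups, each gave 1 lower in SNL L4, and the fit of all 8 groups gave 7 for the difference between sham segments. With contralateral L5 DRGs of sham rats, also chosen after seeing the data, 4 were lower in SNL L5.

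Of 4116 alternative values of single genes, 3833 kept their call or stayed uncalled, and 216 lost and 44 gained a call. A further 23 turned in sign where the main or the alternative fit made a call. Turns in sign without a call in either fit are counted among the 3833. Against contralateral L4, Sparc (-0.094), Mfap4 (-0.24) and Tnc (-0.11) turned in SNL L5, and against contralateral sham L5, Mfap4 (-0.70) and Fmod (-0.39). Averaged probesets turned Nid1 in SNL L4 (-0.082), Col12a1 in sham L4 (0.18) and Vcan in sham L5 (0.40). Quantile normalization turned Sparc (-0.078) and Mgp (-0.36) in sham L4, and Col3a1 (-0.25), Sparc (-0.12), Fbln2 (-0.18) and Mgp (-0.15) in sham L5. Equal medians turned Nid1 (-0.19) and Mgp (-0.17) in sham L4, and Col1a2 (-0.24), Col3a1 (-0.26), Col12a1 (-0.22), Nid1 (-0.30), Fbln2 (-0.28), Fbln5 (-0.11) and Tnc (-0.26) in sham L5. The cause of these turns was not tested. Calls lost in at least 5 of 10 fits without 1 array were those of Col5a3 (8), Lamb2 (8), Col15a1 (6) and Nid2 (6) in sham L4, and of Fn1 (7) and Postn (7) in sham L5. Dim genes such as Fmod are limited by signal over background, for which the deposited values hold no measure.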
